A study of Homo sapiens with 18 samples.

Results

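TRAF1 and a set of genes of the NF-kB pathway were described in human melanoma cells overexpressing MAFG. The set held 10 genes, matched by gene symbol among the 58870 genes of the deposited count table: TRAF1, TRAF2, BIRC3, NFKB1, NFKB2, RELA, RELB, NFKBIA, TNFAIP3 and TNFRSF1B. It was put together around TRAF1 with the RNA levels of TRAF1 in these libraries known, so the values of TRAF1 are given as a description with no test. The other 9 members were tested where their counts allowed it. These members and the gene lists used below were chosen with earlier results of these data known. The numbers of them past the test, beside the shares of all genes, are therefore descriptions.

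RNA-seq had been run on 3 established human melanoma lines, WM164, SKMEL28 and A375. Each line had been transduced with a lentivirus that expressed either GFP, the control, or Myc-DDK-tagged MAFG, in both cases from the EF1α promoter and with a blasticidin resistance gene. The 6 groups, WM164 GFP, WM164 MAFG, SKMEL28 GFP, SKMEL28 MAFG, A375 GFP and A375 MAFG, held 3 libraries each, 18 in all. Every group therefore carried a viral vector and its resistance gene, and no untransduced cells were analysed here. MAFG is a small MAF protein, a transcription factor that binds DNA as a dimer with other bZIP proteins and has no activation domain of its own. Neither the labels nor the methods say that the 3 libraries of a group came from separate cultures, so the p-values measure the spread between these libraries, which may be technical.

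NF-kB transcription factors are dimers of Rel proteins that are held in the cytoplasm by inhibitors of the IkB family. Ligands of the tumour necrosis factor and interleukin families, acting through their receptors, recruit TRAF adaptors and ubiquitin ligases, and the IKK kinases then mark IkB for breakdown, so that the dimers enter the nucleus. In the canonical branch the active dimer is formed by RELA with the product of NFKB1, and in the alternative branch by RELB with the product of NFKB2. Several genes of the pathway, among them NFKBIA, TNFAIP3, BIRC3 and TRAF1, are known to be transcribed in response to NF-kB and act back on the signal. In melanoma the pathway is known for its part in survival and inflammatory signalling.

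The 300 bases around the annotated starts of the members, 250 before and 50 after, were taken from RefSeq (GRCh38.p14), in which 15 windows matched 9 of the members (RELB was not matched). The windows of TRAF1 are shown because, of the members, its RNA differed most between GFP and MAFG cells of WM164. A further reason is that MAFG binds DNA at sequences that contain TGCTGA. Capitals mark TGCTGA on either strand. All 3 windows lie on the minus strand of chromosome 9, are written from 5′ to 3′ along the gene, and contain a start of the TRAF1 transcripts.
TRAF1, chr9:120929122-120929421, minus strand: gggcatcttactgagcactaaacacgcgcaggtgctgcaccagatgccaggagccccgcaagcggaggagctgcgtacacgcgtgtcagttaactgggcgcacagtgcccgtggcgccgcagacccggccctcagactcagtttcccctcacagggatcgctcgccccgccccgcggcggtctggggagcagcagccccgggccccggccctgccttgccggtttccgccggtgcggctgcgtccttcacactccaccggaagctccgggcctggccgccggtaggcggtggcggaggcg
TRAF1, chr9:120926747-120927046, minus strand: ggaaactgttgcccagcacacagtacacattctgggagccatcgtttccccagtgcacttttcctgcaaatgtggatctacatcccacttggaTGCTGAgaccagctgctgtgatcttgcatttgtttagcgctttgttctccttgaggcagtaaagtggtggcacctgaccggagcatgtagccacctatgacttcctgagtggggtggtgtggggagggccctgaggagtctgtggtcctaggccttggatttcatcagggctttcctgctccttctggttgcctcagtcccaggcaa
TRAF1, chr9:120914534-120914833, minus strand: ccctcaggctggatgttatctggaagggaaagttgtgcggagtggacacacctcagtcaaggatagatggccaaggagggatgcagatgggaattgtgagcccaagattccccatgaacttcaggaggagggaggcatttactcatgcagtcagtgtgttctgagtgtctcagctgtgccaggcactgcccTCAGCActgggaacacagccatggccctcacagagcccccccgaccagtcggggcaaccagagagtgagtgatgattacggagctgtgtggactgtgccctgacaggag
TGCTGA was found at 157 and at 59 bases before the start in the second and the third of these windows and in no other window of the members. It was present in 17.3% of the 35116 windows of that length over all genes. The same windows were searched for the E-box CACGTG, on both strands, which was present in 1 window of the members, that of TNFAIP3, and in 7.26% of all windows. CATGTG was present in 3 windows of the members, those of NFKB1, RELA and BIRC3, and in 11.1% of all windows. No match of these motifs overlapped a match of another, and each match is only a run of letters.

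The binding motif of NF-kB itself, the kappaB consensus of 10 letters, was found in 6 of the 15 windows, belonging to NFKB1, NFKB2, TNFAIP3, BIRC3 and NFKBIA. It was present in 5.91% of all windows. Its letters were not found in the 3 windows of TRAF1, and in 1 window of NFKB2 2 of the matches overlapped each other. The stretches of 40 bases below show 1 match in capitals for each of the 5 genes (that of TNFAIP3 holds a further match in lower case), since these members hold the letters that NF-kB binds in front of genes of its own pathway.
NFKB1, chr4:102501295-102501334, plus strand: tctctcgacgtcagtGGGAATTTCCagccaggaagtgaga
NFKB2, chr10:102395669-102395708, plus strand: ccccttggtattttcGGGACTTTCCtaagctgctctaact
TNFAIP3, chr6:137867189-137867228, plus strand: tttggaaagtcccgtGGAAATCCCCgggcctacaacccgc
BIRC3, chr11:102317270-102317309, plus strand: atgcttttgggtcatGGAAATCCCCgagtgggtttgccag
NFKBIA, chr14:35404806-35404845, minus strand: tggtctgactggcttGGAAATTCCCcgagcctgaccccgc

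The 18 libraries held between 20122172 and 39025042 counts (median 31061375). Levels are given as normalized CPM, that is, counts scaled to a common library size with TMM factors over all 18 libraries. MAFG, the transduced gene, was higher in the MAFG cells of every line. In WM164 it rose from 25.8 ± 2.91 to 53.1 ± 4.59 CPM (mean ± SD, n = 3 each; adjusted p = 6.37e-08). In SKMEL28 it rose from 24.1 ± 3.47 to 37.3 ± 1.54 CPM (adjusted p = 1.28e-04). In A375 it was 27.0 ± 4.98 CPM in GFP cells and 47.3 ± 9.24 CPM in MAFG cells, with no overlap between the groups (adjusted p = 0.0655, log2 fold change 0.80, SE 0.17). MAFG shares exonic sequence with SIRT7 on the same strand and with a long noncoding RNA on the other, and the deposited TPM, a level per transcript length, differed more, in WM164 2.89 ± 0.543 against 24.5 ± 3.34. Of the leukocyte markers, CD3D, CD3E, MS4A1 and NKG7 were at 0 in all libraries and PTPRC had 1 count in 1 library. LYZ had 25 to 56 counts in the WM164 libraries and 0 to 17 in the others. CD14 had 0, 1 and 5 counts in WM164 GFP cells and 6, 15 and 8 in WM164 MAFG cells, 0, 2 and 45 in A375 MAFG cells, and at most 3 in the other groups. The part of these counts in the results was not tested. Of 4 keratinocyte and endothelial markers the summed level reached at most 0.968 CPM.

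TRAF1 encodes an adaptor that binds TNF receptors together with TRAF2 and that is itself induced by NF-kB in many cells. The gene (ENSG00000056558.11) lies at chr9:120902393-120929173 on the minus strand of GRCh38 and overlaps no other gene of the annotation (GENCODE 44). In WM164 cells TRAF1 was at 9.42, 9.52 and 8.93 CPM in the 3 GFP libraries. In WM164 MAFG cells it was at 116, 122 and 119.7 CPM, so that the lowest MAFG library was far above the highest GFP library. The log2 fold change was 3.68 (SE 0.07), a 12.8-fold higher level in MAFG cells, and leaving out any 1 library gave 3.64 to 3.70.

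SKMEL28 cells had less TRAF1 RNA. The 3 GFP libraries were at 1.37, 2.61 and 2.14 CPM. The MAFG libraries were at 4.70, 3.87 and 2.70 CPM. The lowest MAFG library was only just above the highest GFP library, and the log2 fold change was 0.90 (SE 0.28), with 0.68 to 1.10 on leaving out a library and 0.25 on log2(TPM + 1). In TPM the groups overlapped, at 0.26, 0.58 and 0.43 in GFP cells and 0.92, 0.74 and 0.44 in MAFG cells.

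A375 cells had the least. TRAF1 was at 0.443, 0.190 and 0.112 CPM in GFP cells, which corresponds to 17, 7 and 4 counts. In A375 MAFG cells it was at 0.986, 0.715 and 1.14 CPM (39, 27 and 49 counts). The groups did not overlap, and the log2 fold change was 1.91 (SE 0.66). Without A375 GFP replicate 1, the GFP library with the most TRAF1 counts, it was 2.62, and leaving out any other library gave 1.57 to 2.07. On log2(TPM + 1) it was 0.17, with all A375 libraries below 1 TPM. At these counts TRAF1 passed the filter on low counts in A375 only through the MAFG group.

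The plot of TRAF1 by library shows the order of the 6 groups.

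**Figure D1:**
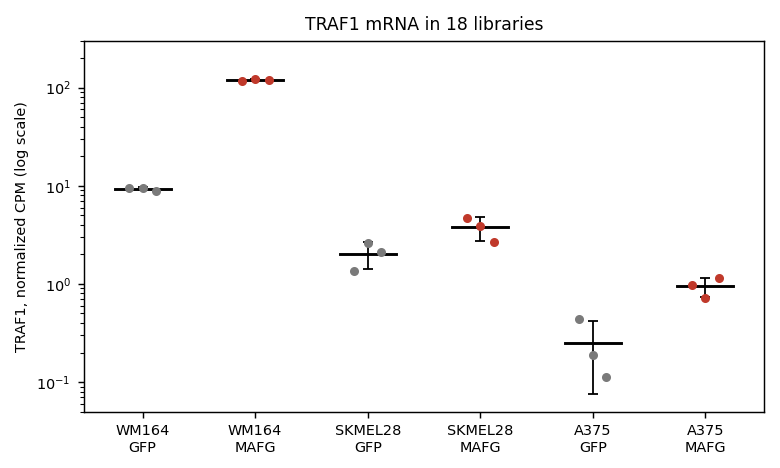
TRAF1 RNA in the 18 libraries, as normalized CPM on a log scale, in GFP (grey) and MAFG (red) cells of WM164, SKMEL28 and A375. Points are libraries, horizontal lines are group means and bars are the SD (n = 3). The WM164 MAFG libraries lie between 116 and 122 CPM, all other libraries are below 10 CPM, and the A375 GFP libraries are the lowest.

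From the highest to the lowest, the groups were WM164 MAFG, WM164 GFP, SKMEL28 MAFG, SKMEL28 GFP, A375 MAFG and A375 GFP. In CPM, no library of any group reached into the range of its neighbour in this order, whereas in TPM the 2 groups of SKMEL28 overlapped. The difference between lines in GFP cells was larger than most of the responses: on the log2 scale WM164 was above SKMEL28 by 2.22 (SE 0.22) and above A375 by 5.18 (SE 0.29), and SKMEL28 was above A375 by 2.96 (SE 0.35). The response of TRAF1 in WM164 exceeded that in SKMEL28 by 2.76 (SE 0.30) and that in A375 by 1.78 (SE 0.48). The response in SKMEL28 was below that in A375 by 0.98 (SE 0.45) on this scale, whereas on the scale of log2(TPM + 1), which compresses low levels, the difference was 0.08 in the other direction.

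Levels per transcript length, in TPM, place TRAF1 among the other members. In WM164 GFP cells TRAF1 was the seventh of the 10 members at 1.32 ± 0.114 TPM, below TNFAIP3 (2.21 ± 0.301) and TRAF2 (2.92 ± 0.807). In WM164 MAFG cells it was the second at 19.4 ± 1.29 TPM, above NFKB2 (15.8 ± 2.59) and below RELA (54.7 ± 3.90). In SKMEL28 and A375 cells TRAF1 was below 1 TPM in every library, and RELA was the highest of the members in all 6 groups.

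Genes beside TRAF1 on the chromosome were looked at after their values were known. In WM164, 9 other genes within 250 kb were tested, and their log2 fold changes ran from -0.25 to 0.88. PHF19, C5 and CNTRL rose and MEGF9 fell past the test (31.8% of all genes passed), and none changed by more than 2-fold. In SKMEL28 the range of the same 9 genes was -0.37 to 0.81, where PSMD5, PHF19, C5 and CNTRL rose and MEGF9 fell (29.9% of all genes passed). In A375, where 8 were tested, it was -0.34 to 0.39 and none passed by edgeR or DESeq2, also at an unadjusted p under 0.05. C5, the complement gene next to TRAF1 on the side of its start, had the highest of these values in WM164 (0.88, SE 0.29) and in SKMEL28 (0.81, SE 0.22).

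Across the 18 libraries, the genes whose log2 CPM was most like that of TRAF1 were TBC1D8 (Pearson r = 0.968), CDKN1C (0.963), LAMA4 (0.963), PLEKHS1 (0.962) and SLC35F1 (0.962). The closest member of the set was RELB (0.451), and the most opposed was TRAF2 (-0.870). These correlations share 3 lines with 6 libraries each, and the differences between lines weigh heavily in them, so they describe the pattern only.

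In WM164, MAFG overexpression went with small rises of canonical pathway members. Of the 9 members other than TRAF1, 8 were tested and 4 passed the test, all of them higher in MAFG cells: NFKB1, RELA, NFKBIA and TNFAIP3. The test was edgeR's quasi-likelihood test at a Benjamini-Hochberg adjusted p of at most 0.05, which 31.8% of all 15919 genes passed in either direction and 16.2% with a higher level in MAFG cells. None of the 4 changed by more than 2-fold, a limit that 6.94% of all genes passed as well, and the median log2 fold change of the 8 was 0.21, beside -0.00 for all genes. In bulk RNA a change in the level per cell and a change in the share of cells with the RNA cannot be told apart.

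NFKB1 and RELA encode the subunits of the canonical dimer. NFKB1 (chr4:102501330-102617302) was at 40.5, 42.8 and 38.8 CPM in WM164 GFP cells and at 42.9, 51.2 and 47.4 CPM in WM164 MAFG cells. The lowest MAFG library was just above the highest GFP library, with a log2 fold change of 0.21 (SE 0.08, adjusted p = 0.0454). RELA (chr11:65653599-65663090) was at 85.5, 72.5 and 78.8 CPM in GFP cells and at 91.1, 89.6 and 94.3 CPM in MAFG cells. The groups did not overlap, and RELA was 1.16-fold higher (log2 fold change 0.21, SE 0.07, adjusted p = 0.0179). RELA overlaps the long noncoding RNA RELA-DT on the opposite strand, and the sources do not state whether counting used strand.

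NFKBIA and TNFAIP3 encode negative regulators of the pathway, the inhibitor IkBα and a ubiquitin-editing enzyme. NFKBIA (chr14:35401079-35404749) was at 9.39, 11.4 and 7.55 CPM in WM164 GFP cells and at 13.3, 12.3 and 13.0 CPM in MAFG cells. All MAFG libraries were above all GFP libraries (log2 fold change 0.44, SE 0.13, adjusted p = 0.0164). TNFAIP3 (chr6:137867214-137883314) was at 8.50, 9.02 and 7.55 CPM in GFP cells and at 12.4, 12.4 and 11.3 CPM in MAFG cells. It was 1.44-fold higher with no overlap between the groups (log2 fold change 0.53, SE 0.12, adjusted p = 0.00194). TNFAIP3 overlaps exons of the long noncoding RNA WAKMAR2 on the opposite strand.

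The groups of WM164 did not overlap for 4 of the 8 members, and for 43.4% of all genes tested. The count of 4 was 1 without WM164 GFP replicate 3, 2 without WM164 MAFG replicate 1 or replicate 3, and 3 without each of the other libraries. TNFAIP3 passed each of these times. In the model of all 18 libraries, which shares 1 estimate of the spread among the lines, TNFAIP3 was the only member called in WM164 (adjusted p = 0.00592). On log2(TPM + 1) with limma, NFKB2, RELA and NFKBIA passed while NFKB1 and TNFAIP3 did not.

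The remaining members showed no change in WM164 that passed the test. TRAF2, the adaptor that recruits ubiquitin ligases to TNF receptors (chr9:136881912-136926607), was at 9.01 ± 0.333 CPM in GFP cells and 8.16 ± 1.53 CPM in MAFG cells (log2 fold change -0.15, SE 0.14). NFKB2 (chr10:102394110-102402524) and RELB (chr19:45001461-45038192) make up the alternative dimer. NFKB2 was at 28.6 ± 3.26 and 30.3 ± 2.71 CPM (0.08, SE 0.09), and RELB at 2.64 ± 0.353 and 2.61 ± 0.248 CPM (-0.01, SE 0.24). BIRC3, the ubiquitin ligase cIAP2 (chr11:102317484-102339403), was at only 0.364 ± 0.150 and 0.472 ± 0.174 CPM, or 6 to 20 counts a library. Its log2 fold change was 0.38 with an SE of 0.55, so that a change of 2-fold was not detectable at this depth. BIRC3 shares exonic sequence with a long noncoding RNA on the opposite strand.

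TNFRSF1B, a receptor for tumour necrosis factor that signals through TRAF2 (chr1:12166991-12209228), was nearly absent from the counts of all 3 lines. It had 0 counts in all GFP libraries of WM164 and A375 and 2, 0 and 1 counts in those of SKMEL28. The MAFG libraries had 1, 0 and 0 counts in WM164, 0, 0 and 7 in SKMEL28 and 7, 0 and 0 in A375. It failed the filter on low counts in each line and was not tested. A count of 0 allows up to 3 counts in a library, and no fold is given between groups at or near that floor.

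The plot of the members by library shows these values for the 8 tested members.

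**Figure D2:**
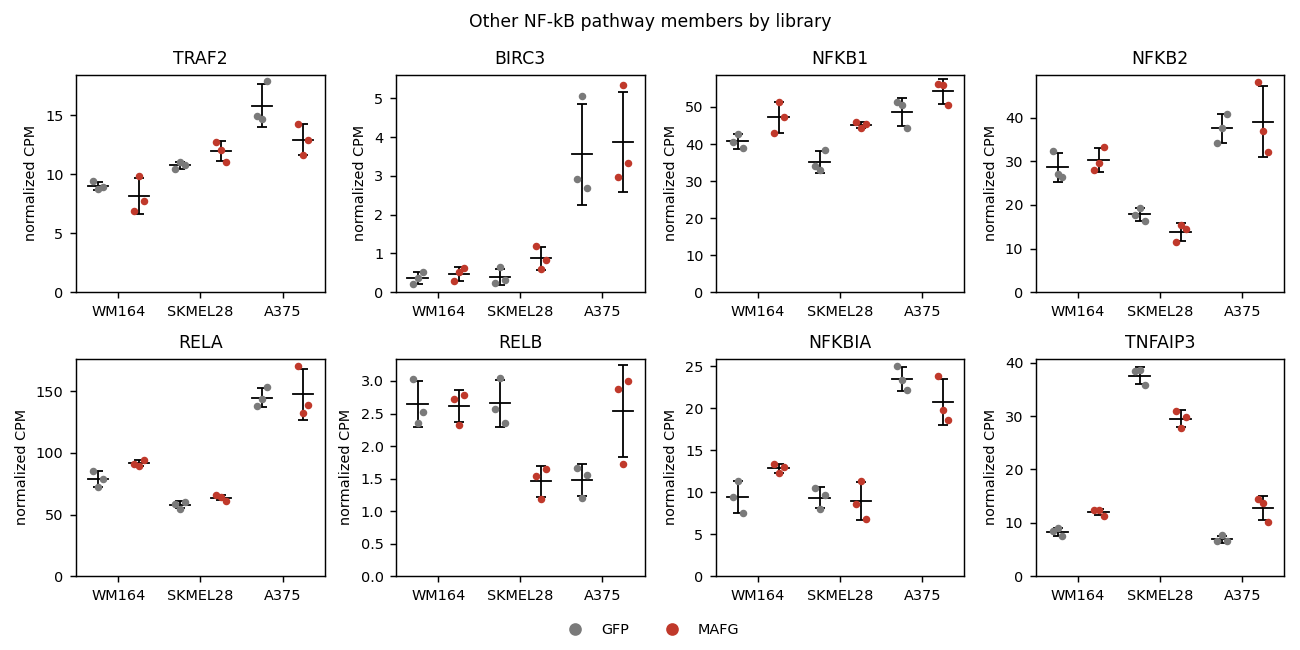
RNA levels of 8 members in normalized CPM, from 0, in GFP (grey) and MAFG (red) cells of the 3 lines. Points are libraries, horizontal lines are group means and bars are the SD (n = 3). TNFAIP3 is higher in MAFG than in GFP cells of WM164 and A375 and lower in those of SKMEL28, where its GFP level of 37.5 CPM is the highest of the lines, and BIRC3 and RELA are highest in A375.

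In SKMEL28, 4 of the 8 tested members passed the test, and 29.9% of all 15523 genes did. NFKB1 rose, whereas NFKB2, RELB and TNFAIP3 fell. The shares of all genes were 14.6% for rises and 15.3% for falls. The median log2 fold change of the 8 was 0.03, beside -0.01 for all genes, and no change past the test exceeded 2-fold, as it did for 4.74% of all genes.

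NFKB1 was at 34.0, 33.0 and 38.4 CPM in SKMEL28 GFP cells and at 45.8, 44.3 and 45.3 CPM in MAFG cells. The MAFG libraries lay close together above the GFP libraries (log2 fold change 0.36, SE 0.08, adjusted p = 0.00186). RELA, its canonical partner, was at 58.9, 54.9 and 60.1 CPM in GFP cells and at 65.9, 64.2 and 61.3 CPM in MAFG cells. The groups did not overlap, yet the difference did not pass the test (log2 fold change 0.14, SE 0.06, adjusted p = 0.122).

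Both genes of the alternative dimer fell in SKMEL28. NFKB2 was at 17.8, 19.2 and 16.4 CPM in GFP cells and at 11.6, 15.4 and 14.5 CPM in MAFG cells. Its log2 fold change was -0.36 (SE 0.12, adjusted p = 0.0278). RELB was at 2.56, 3.05 and 2.35 CPM in GFP cells and at 1.53, 1.18 and 1.65 CPM in MAFG cells. It was 1.81-fold lower in MAFG cells (log2 fold change -0.86, SE 0.28, adjusted p = 0.0309), on 33 to 77 counts a library. For both genes every MAFG library was below every GFP library.

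TNFAIP3 also fell in SKMEL28. It was at 38.4, 38.5 and 35.7 CPM in GFP cells and at 30.9, 27.8 and 29.9 CPM in MAFG cells. The groups were apart, and the level was 1.27-fold lower in MAFG cells (log2 fold change -0.34, SE 0.08, adjusted p = 0.00279). NFKBIA, which like TNFAIP3 restrains the pathway, was at 9.38 ± 1.27 and 8.94 ± 2.27 CPM (-0.07, SE 0.17).

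BIRC3 was at 0.233, 0.640 and 0.311 CPM in SKMEL28 GFP cells and at 1.20, 0.610 and 0.826 CPM in MAFG cells. A MAFG library lay below a GFP library, and the log2 fold change of 1.20 (SE 0.55) did not pass the test (adjusted p = 0.113). BIRC3 had 7, 13 and 9 counts in GFP cells and 36, 17 and 22 in MAFG cells. It passed the filter on low counts in SKMEL28 only through the MAFG group. TRAF2 was at 10.8 ± 0.282 and 12 ± 0.844 CPM (log2 fold change 0.16, SE 0.12), and on the scale of log2(TPM + 1) its difference was -0.13.

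The groups of SKMEL28 did not overlap for 6 of the 8 members, and for 43.0% of all genes tested. Without SKMEL28 GFP replicate 1 or replicate 2, or without SKMEL28 MAFG replicate 1, the count of members past the test was 2, namely NFKB1 and TNFAIP3. RELB passed only when SKMEL28 MAFG replicate 3 was the library left out. On log2(TPM + 1) with limma, only the fall of TNFAIP3 passed (adjusted p = 0.0212, log2 difference -0.46), so that the split of 1 higher and 3 lower became 0 and 1. In TPM the median gene of SKMEL28 was itself lower by 0.14 in MAFG cells, and that of WM164 was higher by 0.14.

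In A375, 1 of the 8 tested members passed the test, beside 0.843% of all 15779 genes (0.78% higher and 0.0634% lower in MAFG cells, and 0.665% beyond 2-fold). TNFAIP3 was at 6.65, 7.72 and 6.53 CPM in A375 GFP cells and at 14.5, 13.8 and 10.2 CPM in MAFG cells. All MAFG libraries were above the GFP libraries, and the level was 1.83-fold higher (log2 fold change 0.87, SE 0.17, adjusted p = 0.0440). The call was lost without any of A375 GFP replicates 1, 2 and 3 and without A375 MAFG replicate 2 (adjusted p between 0.156 and 0.243). It was lost as well with the replicate number as a block (adjusted p = 0.131), on values in TPM, and with a minimum of 10 counts in every library (adjusted p = 0.0576). Over all alternatives the adjusted p ran from 1.13e-04, in the model of all 18 libraries, to 0.966.

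RELB was at 1.67, 1.20 and 1.56 CPM in A375 GFP cells and at 2.88, 1.72 and 3.0 CPM in MAFG cells. The groups were apart by a small margin and the change did not pass the test (log2 fold change 0.77, SE 0.33, adjusted p = 0.752). TRAF2 was at 14.9, 14.6 and 17.9 CPM in GFP cells and at 14.2, 11.6 and 12.9 CPM in MAFG cells (-0.30, SE 0.14, adjusted p = 0.826). Besides TRAF1, these 2 genes and TNFAIP3 were the members without overlap between the groups of A375, which held for 12.3% of all genes.

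The other members of A375 had overlapping groups. NFKB1 was at 48.7 ± 3.75 and 54.2 ± 3.29 CPM (0.15, SE 0.11), and NFKB2 at 37.5 ± 3.34 and 39.0 ± 8.16 CPM (0.05, SE 0.14). RELA was at 145 ± 7.78 and 147 ± 20.4 CPM (0.02, SE 0.11), and NFKBIA at 23.5 ± 1.44 and 20.8 ± 2.74 CPM (-0.18, SE 0.12). BIRC3 was at 3.55 ± 1.31 and 3.88 ± 1.29 CPM (0.13, SE 0.32). The signs for NFKB2, RELA and BIRC3 changed with the scale, all 3 values being below 0 on log2(TPM + 1).

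**Figure D3:**
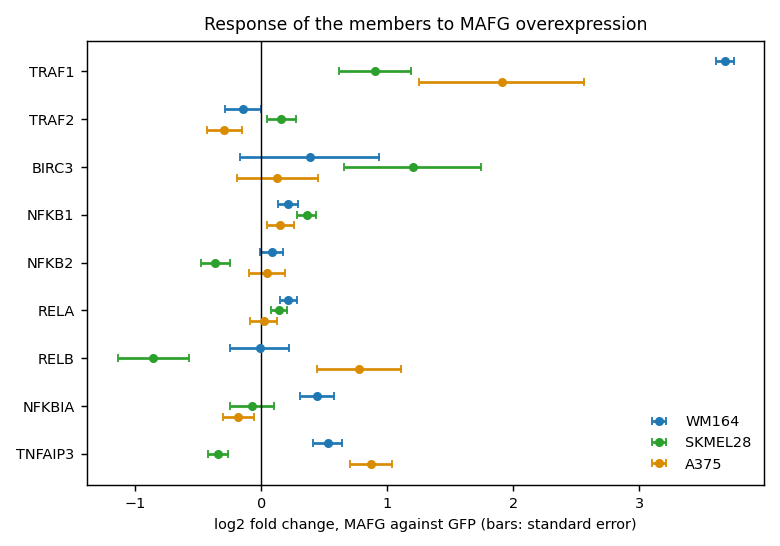
Log2 fold change of MAFG against GFP cells for TRAF1 and the 8 tested members, in WM164 (blue), SKMEL28 (green) and A375 (orange). Points are the fitted changes and bars their standard errors, from 3 libraries a group. TRAF1 in WM164 is at 3.68, while all other members lie between -0.86 and 1.20, and TNFAIP3 and RELB have the opposite sign in SKMEL28 from A375.

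Whether the responses differed between lines was tested as the difference of the responses in a model of all 18 libraries. These comparisons share libraries with each other. The response of TNFAIP3 in WM164 exceeded that in SKMEL28 by 0.87 on the log2 scale (SE 0.17, adjusted p = 0.00162), and it was the only 1 of the 8 members for which the 2 lines differed. Of all 18767 genes, 13.7% differed in this comparison, 7.39% with the higher response in WM164 and 6.32% with the lower, and 5.1% by more than 2-fold. The response of TNFAIP3 in SKMEL28 was below that in A375, by -1.22 (SE 0.17, adjusted p = 5.92e-05). RELB likewise responded differently in SKMEL28 and A375, with a difference of -1.64 (SE 0.39, adjusted p = 0.00905), so that 2 of 8 members differed. Of all genes 9.51% did, 3.68% with the higher and 5.83% with the lower response in SKMEL28, and 4.2% by more than 2-fold.

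Between WM164 and A375, 0 of the 8 members differed in response by edgeR or by DESeq2, beside 9.21% of all genes by edgeR (4.52% higher and 4.69% lower in WM164, and 4.39% by more than 2-fold). At an unadjusted p under 0.05 there was 1, NFKBIA, with a difference of 0.62 (SE 0.23, unadjusted p = 0.0144). Without A375 MAFG replicate 1, 2 members differed. For TNFAIP3, which was higher in MAFG cells of both lines, the difference was -0.35 (SE 0.18, adjusted p = 0.269).

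The GFP cells of the lines were compared in the same model. Between SKMEL28 and A375 all 8 tested members differed, 2 of them higher and 6 lower in SKMEL28. Of all genes 68.6% differed, 35.3% higher and 33.3% lower, and 43.8% by more than 2-fold. Between WM164 and A375, 7 of 8 differed, 1 higher and 6 lower in WM164, beside 71.5% of all genes (36.9% higher, 34.6% lower, 46.7% by more than 2-fold). Between WM164 and SKMEL28, 3 of 8 differed, 2 higher and 1 lower in WM164, beside 56.8% of all genes (27.8% higher, 29.0% lower, 28.7% by more than 2-fold). RELA and NFKB2 had a higher mean CPM in WM164 (78.9 and 28.6) than in SKMEL28 (58.0 and 17.8). Their mean TPM was lower in WM164 (42.4 and 10.9) than in SKMEL28 (45.8 and 12.7).

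A375 had the highest levels of most pathway members. BIRC3 was 9.72-fold higher in A375 than in WM164 (log2 difference of WM164 minus A375 -3.28, SE 0.46, adjusted p = 2.08e-06) and 9.28-fold higher than in SKMEL28. NFKBIA was 2.48-fold and RELA 1.84-fold higher in A375 than in WM164. Against SKMEL28, A375 had 2.50-fold more NFKBIA, 2.50-fold more RELA and 2.11-fold more NFKB2, while WM164 and SKMEL28 had like levels of NFKBIA (log2 difference 0.01, SE 0.17) and of BIRC3 (-0.07, SE 0.52).

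TNFAIP3, RELB and TRAF1 went the other way in CPM. TNFAIP3 was 5.39-fold higher in SKMEL28 than in A375 (adjusted p = 4.35e-13) and 4.49-fold higher than in WM164 (adjusted p = 7.46e-12), while WM164 and A375 did not differ past the test (log2 difference 0.26, SE 0.13). RELB was 1.79-fold higher in WM164 and in SKMEL28 than in A375. In TPM, however, the mean of RELB was lower in WM164 (0.703) than in A375 (0.803), and 1.38 in SKMEL28. The TPM of A375 libraries overlapped those of both other lines. The line with the most TRAF1 RNA, WM164, was thus not the line with the most TNFAIP3, BIRC3 or NFKBIA RNA.

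Other genes of the pathway were taken from 7 lists by role, with 123 genes, of which 121 are in the count table. The lists were chosen with earlier results of these data known. Of those tested, 27 rose and 13 fell among 84 in WM164, 20 rose and 14 fell among 85 in SKMEL28, and 0 rose and 2 fell among 92 in A375. Of all genes, 16.2% rose and 15.6% fell in WM164 and 14.6% rose and 15.3% fell in SKMEL28, so the falls in both lines were near the background. In A375, 0.78% of all genes rose and 0.0634% fell. Besides SAA1, genes of these lists given below without an SE were named after their values were seen. The changes of the ligands were few. TNFSF13B, the cytokine BAFF, rose in WM164 (log2 fold change 0.50, adjusted p = 0.0360) and in SKMEL28 (0.99, adjusted p = 0.00800). It was the only ligand called among 6 in WM164. In SKMEL28 the other of 2 among 5 was IL1B, an interleukin that signals through IL1R1. IL1B rose there from 2.63 ± 0.211 to 6.27 ± 0.905 CPM (1.25, SE 0.19, adjusted p = 1.38e-04). It had 0 counts in all WM164 libraries, and IL1R1 had only 6 to 26 counts a library in SKMEL28.

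Of 15 receptors tested in WM164, 9 rose and 1 fell (16.2% and 15.6% of all genes did), with a median log2 fold change of 0.41 beside -0.00 for all genes. IL1R1 rose from 6.94 ± 0.618 to 35.1 ± 0.406 CPM (2.33, SE 0.09, adjusted p = 2.24e-12). Its coreceptor IL1RAP rose from 144 ± 4.92 to 298 ± 5.25 CPM (1.05, SE 0.05, adjusted p = 3.77e-11). NGFR, the low-affinity neurotrophin receptor, rose from 6.14 ± 0.451 to 20.5 ± 2.24 CPM (1.74, SE 0.12, adjusted p = 1.76e-09). The receptor that fell was TNFRSF14 (-0.92, adjusted p = 1.01e-07).

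In SKMEL28 the receptors were divided, with 6 higher and 5 lower of 17 (14.6% and 15.3% of all genes) and a median of 0.02. NGFR rose from 11.8 ± 2.09 to 68.8 ± 6.65 CPM (2.54, SE 0.11, adjusted p = 1.58e-10), and TLR4, the receptor for bacterial lipopolysaccharide, from 3.68 ± 0.609 to 10.1 ± 1.18 CPM (1.46, SE 0.17, adjusted p = 8.91e-06). TLR4 did not pass on log2(TPM + 1) with limma (0.31, adjusted p = 0.386), and in TPM its groups overlapped. TNFRSF11B, the decoy receptor osteoprotegerin and 1 of the 6, had 3, 2 and 6 counts in GFP cells and 36, 30 and 14 in MAFG cells. It passed the filter on low counts only through the MAFG group, so its fitted change of 2.73 (SE 0.62) is given as a description. The 5 that fell were TNFRSF1A, the main receptor for tumour necrosis factor, LTBR, TNFRSF10B, TNFRSF12A and TNFRSF14, with log2 fold changes from -0.69 to -0.37. TNFRSF1A rose slightly in WM164 (0.18, adjusted p = 0.0338) and fell in SKMEL28 (-0.40, adjusted p = 0.00199). On log2(TPM + 1) the split in SKMEL28 was 1 higher and 5 lower. In A375 the only receptor called of 16 was TNFRSF21, which fell (-0.58, adjusted p = 0.0363), beside 0.843% of all genes called.

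Adaptors and kinases changed little. Of 25 adaptors tested in WM164, 3 rose and 6 fell, and of 25 in SKMEL28, 5 rose and 2 fell, all by less than 2-fold. These counts were close to the 31.8% and 29.9% of all genes called. TRAF6 and TAB3 rose and TRAF5 fell in both lines, whereas RIPK2 fell in WM164 (-0.39) and rose in SKMEL28 (0.41). On log2(TPM + 1) the splits were 2 and 0 in WM164 and 1 and 1 in SKMEL28. Of 26 adaptors tested in A375, 0 were called by edgeR or by DESeq2, beside 0.843% of all genes by edgeR. An unadjusted p under 0.05 was found for 2 of these adaptors. Of the 5 IKK kinase genes, IKBKB rose in WM164 (0.28, adjusted p = 0.0129), and 0 were called in SKMEL28 and A375 by either tool, also at an unadjusted p under 0.05.

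Among the other Rel and IkB genes, NFKBIZ and REL fell in both WM164 and SKMEL28. NFKBIZ, an atypical nuclear IkB protein, fell from 58.3 ± 3.16 to 33.3 ± 2.34 CPM in WM164 (-0.81, adjusted p = 1.40e-07) and from 75.6 ± 3.30 to 46.5 ± 2.86 CPM in SKMEL28 (-0.70, adjusted p = 1.12e-06). REL, which encodes the c-Rel subunit, fell in WM164 (-0.34, adjusted p = 0.0227) and in SKMEL28 (-0.32, adjusted p = 0.0357). NFKBIB fell in SKMEL28 alone among the calls (-0.27). Thus 2 of 5 genes were called in WM164 and 3 of 5 in SKMEL28, beside 31.8% and 29.9% of all genes. In A375 0 of 5 were called by edgeR or DESeq2, also at an unadjusted p under 0.05, beside 0.843% of all genes by edgeR.

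Of 8 other negative regulators, CYLD, a deubiquitinase, rose in WM164 (0.66, adjusted p = 1.62e-04), together with ITCH (0.18), while OTUD7B fell (-0.24). In SKMEL28 the only call was TAX1BP1, a partner of TNFAIP3, which fell (-0.17, adjusted p = 0.0390). In A375 there were 0 calls by edgeR or DESeq2 and 0 at an unadjusted p under 0.05. The calls by edgeR, 3 of 8 in WM164 and 1 of 8 in SKMEL28, stand beside 31.8% and 29.9% of all genes. In A375 the share of all genes was 0.843%.

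The genes listed as NF-kB targets rose more often than they fell in WM164, 11 against 3 of 20 (16.2% and 15.6% of all genes). The median log2 fold change was 0.49, beside -0.00 for all genes. SAA1, 1 of the 11, had 2, 1 and 0 counts in GFP cells and 15, 36 and 54 in MAFG cells. It passed the filter on low counts only through the MAFG group, so its rise is a description. LCN2, the iron-sequestering lipocalin, rose from 1.16 ± 0.141 to 30.0 ± 1.80 CPM (4.69, SE 0.13, adjusted p = 1.31e-14). IER3, an early response gene, rose from 134 ± 7.68 to 340.2 ± 8.78 CPM (1.34, SE 0.06, adjusted p = 4.24e-12), and the complement gene C3 from 1.06 ± 0.281 to 7.04 ± 0.288 CPM (2.73, SE 0.22, adjusted p = 2.36e-08). BCL2A1, BCL2L1, both survival genes of the BCL2 family, and the chemokine CCL20 were the 3 that fell, by 1.35, 0.90 and 1.73 on the log2 scale. CCL20 had 44, 56 and 43 counts in GFP cells and 8, 18 and 19 in MAFG cells. It passed the filter on low counts only through the GFP group, so its fall is a description.

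In SKMEL28, 7 targets rose and 3 fell of 20 (14.6% and 15.3% of all genes), with a median of 0.02. BCL2A1 fell from 45.5 ± 2.17 to 18.8 ± 1.25 CPM (-1.27, SE 0.08, adjusted p = 1.45e-08). CCL20 rose from 4.76 ± 0.762 to 9.80 ± 1.80 CPM (1.04, SE 0.17, adjusted p = 3.00e-04), against its fall in WM164. SAA1, an acute phase protein gene, was at 0 counts in all 3 GFP libraries and at 1.67, 3.48 and 2.40 CPM in MAFG cells. Against a floor of 3 counts in each GFP library it was at least 21.5-fold higher. SAA1, 1 of the 7, passed the filter on low counts only through the MAFG group, so no test is given, and the median of the list was 0.02 also with SAA1 at this bound. On log2(TPM + 1) the split was 3 higher and 5 lower.

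In A375 the only call among 26 targets was PTX3, a pentraxin gene, which fell from 117 ± 5.47 to 78.0 ± 4.68 CPM (-0.59, adjusted p = 0.0182). Of all genes 0.843% were called there by edgeR. DESeq2 called 4 genes of all lists in A375, 2 receptors and 2 targets.

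**Figure D4:**
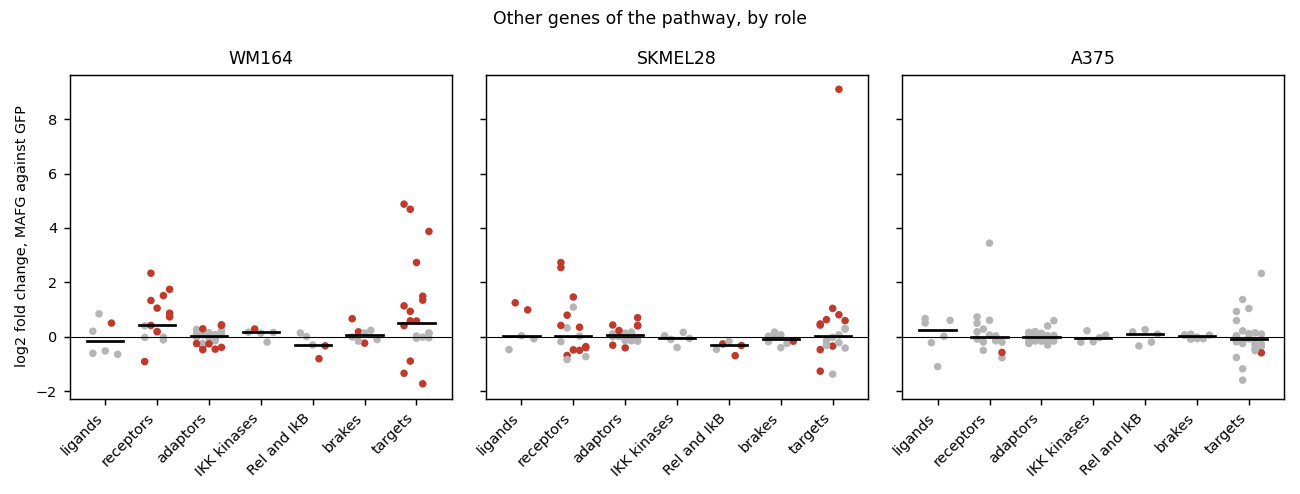
Log2 fold changes of MAFG against GFP cells for other genes of the pathway, grouped by role, in WM164, SKMEL28 and A375. Points are tested genes, in red where the adjusted p was at most 0.05, and black lines are list medians. In WM164 receptors (9 of 15) and targets (11 of 20) include most of the rises. SAA1, 1 of these targets, had at most 2 counts in a WM164 GFP library. The highest point of SKMEL28 is also SAA1, whose fitted value there rests on GFP libraries at 0 counts.

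Markers of the melanocytic state also differed between GFP and MAFG cells, though their sum was lower with MAFG in WM164 and SKMEL28 and higher in A375. The summed level of 7 melanocytic markers was 4695 to 5029 CPM in WM164 GFP cells and 2638 to 2767 CPM in WM164 MAFG cells. In SKMEL28 it was 4789 to 5046 and 4161 to 4387 CPM, and in A375 35.3 to 41.6 and 120.0 to 172 CPM. In WM164 the means of MITF, PMEL, MLANA, TYR and DCT were lower in MAFG cells. SOX10 (1369 and 1328 CPM) and S100B (212 and 215 CPM) differed little there. In SKMEL28 the means of MITF, PMEL, TYR and DCT were lower in MAFG cells. Those of MLANA (510 and 524 CPM), SOX10 (892 and 910 CPM) and S100B (271 and 405 CPM) were not. In A375 3 of the 7 markers were at 0 in GFP cells and 2 in MAFG cells: MLANA and TYR were at 0 in all libraries and DCT reached at most 0.0253 CPM, while SOX10 was 6.93 to 11.5 CPM in GFP cells and 97.9 to 142 CPM in MAFG cells. AXL and NGFR, the markers of dedifferentiated cells, summed to 8.61 to 11.0 CPM in GFP and 45.5 to 51.7 CPM in MAFG cells of WM164. The sums were 10.3 to 14.4 and 85.5 to 100.5 CPM in SKMEL28, and 617 to 665 and 546 to 683 CPM in A375. In A375 nearly all of the sum was AXL (means 633 and 591 CPM), while NGFR was lower in MAFG cells (1.72 and 1.01 CPM). In SKMEL28 MAFG cells the mean of NGFR (68.8 CPM) was above that of AXL (23.0 CPM). NGFR is also among the receptors above. The part of these states in the levels of the pathway genes was not tested.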

How the data were processed

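Total RNA of the 18 samples was sequenced as read pairs. Per the labels, the authors used cutadapt 1.8.1, STAR 2.7.7a, RSEM 1.3.0 and DESeq2 with the build GRCh38; the methods state that uniquely aligned reads were counted with featureCounts. The labels name an NEBNext kit that keeps no strand, the methods a strand-specific NuGEN kit, and the use of strand in counting is not given in the sources used here. The authors deposited raw counts per gene and TPM per gene.

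The deposited counts were tested with edgeR 4.0.16 (R 4.3.3), with TMM scaling, the filterByExpr filter on low counts and Benjamini-Hochberg adjustment over all genes tested. Each response was fitted on the 6 libraries of a line, and differences between lines on all 18 libraries. A gene passed at an adjusted p of at most 0.05, and was differentially expressed if the absolute log2 fold change was also above 1. SE is the absolute log2 fold change divided by the square root of the test's F. Alternatives were DESeq2 1.42.0, its size factors, other count filters, a replicate block, limma 3.58.1 on log2(TPM + 1) and log2(TPM + 0.1), and leaving out each library. The scripts were tested on simulated data. The number of counts behind a gene sets its precision, and no UMIs were used, so that floors cover counting error only.

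The members and gene lists were chosen with earlier results of these data known. Besides the members, the text names up to 3 genes of smallest adjusted p among those differentially expressed in each list and line, the 5 genes most correlated with TRAF1, and MAFG. Genes named outside this rule are said to be so. Same-numbered replicates of GFP and MAFG cells of a line did not deviate together (9 pairs, r between -0.04 and 0.03). Gene identifiers of 58472 of 58825 genes matched GENCODE 44. NFKBID and N4BP1 of the lists were not analysed here. The summed level of the leukocyte marker list is not reported here.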

Additional observations from a re-analysis of the deposited data

Results flagged for a closer look

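Of the 8 tested members, 2 had responses to MAFG overexpression that differed between lines by a test of the difference itself, in the model of all 18 libraries (edgeR's quasi-likelihood test). The response of TNFAIP3 was 0.87 higher in WM164 than in SKMEL28 on the log2 scale (adjusted p = 0.00162). The response of TNFAIP3 in SKMEL28 minus that in A375 was -1.22 (adjusted p = 5.92e-05), and that of RELB was -1.64 (adjusted p = 0.00905). On values in TPM with limma the differences of TNFAIP3 kept their direction and did not pass the test, with 0.86 and -0.77 on log2(TPM + 1) (adjusted p = 0.0606 and 0.182). Over all alternatives the adjusted p reached at most 0.119 and 0.307 for these differences of TNFAIP3 and 0.0792 for that of RELB.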

How the results depend on the processing

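Counts of members past the test, TRAF1 left out, depended on the setting. In WM164 the 4 members became 1 on log2(TPM + 1) with no filter, 1 in the model of all 18 libraries and 0 with a fold limit of 2. Leaving out a library gave 1 to 3. In SKMEL28 the 4 became 1 on log2(TPM + 1), 1 on log2(TPM + 0.1), 0 on log2(TPM + 1) with no filter, 2 in the model of all 18 libraries and 0 with the fold limit, and 2 to 4 on leaving out a library. In A375 the 1 member became 0 on all 3 settings in TPM, with at least 10 counts in every library, with the fold limit and with the replicate block, and was 0 to 1 on leaving out a library. The replicate block changed no other count of members by more than 1.5 times, and the replicate numbers did not pair the samples.

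For differences between responses, WM164 against SKMEL28 gave 1, but 3 on log2(TPM + 1) and 0 with the fold limit. WM164 against A375 gave 0, but 2 on each of the 3 settings in TPM, and 0 to 2 on leaving out a library (2 without A375 MAFG replicate 1). SKMEL28 against A375 gave 2, but 1 on log2(TPM + 1), 1 on log2(TPM + 0.1) and 0 with no filter. In GFP cells, WM164 against SKMEL28 gave 3, but 5 on log2(TPM + 0.1) and 1 with the fold limit. WM164 against A375 gave 7, but 2 with the fold limit, and SKMEL28 against A375 gave 8, but 5 on each setting in TPM and 5 with the fold limit. The cause of these shifts was not tested, except that the fold limit is stricter by construction.

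Among the responses within a line, signs turned for small changes that passed no test. RELB in WM164 was 0.11 on log2(TPM + 1) with no filter. TRAF2 in SKMEL28 was -0.13 on log2(TPM + 1) with and without the filter, and -0.15 on log2(TPM + 0.1). BIRC3 in A375 was -0.046 on log2(TPM + 1) with no filter, and NFKB2 in A375 was -0.14 in TPM. RELA in A375 was -0.028 on log2(TPM + 1) with and without the filter, and -0.029 on log2(TPM + 0.1). Between GFP cells, signs were not followed for differences of less than 2-fold. There the mean TPM of RELA and NFKB2 was lower in WM164 than in SKMEL28, against the order in CPM. That of RELB was lower in WM164 than in A375, also against the order in CPM. The difference of the TRAF1 responses of SKMEL28 and A375 turned to 0.080 on log2(TPM + 1). On leaving out a library, log2 fold changes ran from -0.0030 to 0.18 for NFKB2 and from -0.10 to 0.10 for RELB in WM164, from -0.28 to 0.086 for NFKBIA in SKMEL28, and in A375 from -0.19 to 0.46 for BIRC3, from -0.10 to 0.16 for NFKB2 and from -0.074 to 0.079 for RELA.

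In TPM the median of all genes shifted by 0.14 in WM164, -0.14 in SKMEL28 and -0.10 in A375 on log2(TPM + 1). With 3 libraries a group, low genes such as BIRC3 and TNFRSF1B are limited by their counts.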
